A study of Mus musculus with 6 samples.

Results

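Transcript levels of 9 transcription factors of granulopoiesis, the making of neutrophils and related cells, were followed across 6 libraries: the C/EBP family members Cebpa, Cebpb, Cebpd, Cebpe and Cebpg, and Gfi1, Spi1, Runx1 and Myb. They were taken by name from the deposited table of normalized counts, in which all 9 were found among 43432 genes. The libraries are bulk RNA-seq of CD11b+ spleen cells from 6 Rag1 KO mice of strain C57BL/6J, sorted 8 days after cell transfer, and every mouse had its own library. All 6 mice received unmanipulated 2D2 CD4+ T cells together with cultured B cells that had been loaded with MOG protein. In the WT iGB6 group (3 mice) the B cells were WT and carried the retroviral pMSCV-IRES2-eGFP vector with the Il6 gene. In the IgHMOG iGBGFP group (3 mice) the B cells were IgHMOG and carried an empty pMSCV vector, so B cell genotype and vector cannot be told apart. Each group had 1 female (replicate 1) and 2 males (replicates 2 and 3), and the sources used here give no ages. Rag1 KO mice lack endogenous mature B and T lymphocytes but do form natural killer cells.

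C/EBP proteins are basic leucine zipper factors that bind DNA as pairs, either with themselves or with each other. In the bone marrow, C/EBP alpha starts the granulocyte-monocyte programme and C/EBP epsilon acts later, at the stage when secondary granules form. C/EBP beta is the factor classically tied to emergency granulopoiesis, the faster output of neutrophils under infection or cytokine stimulation, and it was first described as a nuclear factor for IL-6 expression. The other factors act earlier or steer the lineage: Myb keeps progenitors dividing, Runx1 and PU.1 (encoded by Spi1) open myeloid genes, and Gfi1 favours neutrophils over monocytes by repression.

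Library depth ran from 5196339 to 7564254 reads, and 14816 to 17013 genes were detected per library. Itgam, which encodes CD11b itself, stood at 6451 to 12352 normalized counts, and Ly6g, a surface marker of neutrophils, at 1223 to 4467. None of the 9 genes listed as markers of sorted myeloid cells passed the test between the groups. The rarest of the 9 transcription factors rested on few reads. Cebpb had 1 to 17 reads per library, Gfi1 had 6 to 15, and Cebpd had 12 to 81. At the other end, Cebpe had 191 to 1019 reads and Spi1 had 142 to 336.

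The genes are spread over 6 chromosomes of GRCm38, and all are protein-coding. Cebpa (ENSMUSG00000034957, chromosome 7, 35119293 to 35121928, plus strand) and Cebpg (ENSMUSG00000056216, chromosome 7, 35046422 to 35056573, minus strand) lie close to each other. Cebpb (ENSMUSG00000056501) is at 167688915 to 167690418 on chromosome 2, which also holds Spi1 (ENSMUSG00000002111) at 91082390 to 91115756. Cebpd (ENSMUSG00000071637) is at 15887286 to 15891031 on chromosome 16, which also holds Runx1 (ENSMUSG00000022952) at 92601466 to 92826149. Cebpe (ENSMUSG00000052435) is on chromosome 14 at 54710360 to 54712174, Gfi1 (ENSMUSG00000029275) on chromosome 5 at 107716657 to 107726036, and Myb (ENSMUSG00000019982) on chromosome 10 at 21124935 to 21160984. Cebpb is annotated with a single exon, Cebpa, Cebpd, Cebpe and Cebpg with at most 2 exons in a transcript, and Myb with up to 16. The exons of Cebpb share 312 of their 1504 bases (20.7%) with Tmem189 on the other strand, and those of Cebpd share 562 of 3746 bases (15.0%) with Spidr. The sources used here do not give the strand setting of the counting, so reads in those stretches cannot be assigned with certainty.

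Promoter sequences from RefSeq (GRCm38.p6) were matched for 6 of the 9 genes, and 3 are shown: those of the neighbours Cebpa and Cebpg, whose levels were lower in WT iGB6 without passing the test, and that of Myb, whose level was higher without passing. Each is the stretch of 250 bases that ends at the base before the RefSeq start, read in the direction of the gene. For Cebpg that start lies a few bases inside the gene as GENCODE annotates it, so the end of its stretch overlaps the coordinates given above. Capitals mark CCAAT (or ATTGG, the same box on the other strand), TATAAA (or TTTATA), and the C/EBP core TTGCNNAA (or TTNNGCAA). The stretches are chr7:35119043-35119292 (plus strand) for Cebpa, chr7:35056567-35056816 (minus strand) for Cebpg and chr10:21160985-21161234 (minus strand) for Myb.
Cebpa: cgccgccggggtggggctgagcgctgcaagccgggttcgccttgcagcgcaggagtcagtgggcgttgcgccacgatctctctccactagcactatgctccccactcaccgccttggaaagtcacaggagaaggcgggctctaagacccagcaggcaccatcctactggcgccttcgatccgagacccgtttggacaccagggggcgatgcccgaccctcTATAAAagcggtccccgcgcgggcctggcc
Cebpg: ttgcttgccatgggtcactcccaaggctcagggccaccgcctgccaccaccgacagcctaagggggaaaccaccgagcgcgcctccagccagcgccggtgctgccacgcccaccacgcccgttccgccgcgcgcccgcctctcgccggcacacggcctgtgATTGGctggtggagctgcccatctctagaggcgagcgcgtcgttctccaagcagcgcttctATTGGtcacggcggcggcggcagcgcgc
Myb: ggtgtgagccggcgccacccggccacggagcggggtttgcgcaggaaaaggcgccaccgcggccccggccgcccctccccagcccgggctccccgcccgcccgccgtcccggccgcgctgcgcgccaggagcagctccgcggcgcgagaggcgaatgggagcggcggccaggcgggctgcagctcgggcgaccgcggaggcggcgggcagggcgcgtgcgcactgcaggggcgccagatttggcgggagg
The Cebpa stretch held 1 TATAAA, which 12.4% of 32851 mouse promoters of this length hold on either strand. The Cebpg stretch held 2 CCAAT boxes, which 33.8% of promoters hold at least once. The letters of the C/EBP core, found in 9.56% of promoters, were not in these 3 stretches, and 1 match lay in a promoter of Gfi1. GC content was 66.4% for Cebpa, 70.8% for Cebpg and 81.2% for Myb.

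Cebpe was by far the most abundant of the 9 per unit of length. Normalized counts divided by the kilobases of annotated exon averaged 533 for Cebpe over the 6 libraries, with a range of 154 to 974. Spi1 followed with a mean of 84.1 per kb (62.5 to 108) and Cebpg with 34.4 (17.7 to 55.7), and these first 3 did not overlap. Below them the ranges of neighbours overlapped. The means per kb were 18.7 for Myb, 14.0 for Cebpa, 7.26 for Cebpd, 5.48 for Runx1, 3.75 for Cebpb and 2.69 for Gfi1. The mean level of Cebpe was above that of 97.0% of the coding genes detected in these libraries, and that of Cebpb was above 45.8%. These 3 transcripts rich in G and C stood at the top, in the middle and near the bottom of this order. Cebpe has 61.5% GC in its longest transcript, Cebpa 62.6% and Cebpb 67.2%, against a median of 49.1% over the coding genes tested.

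**Figure D1:**
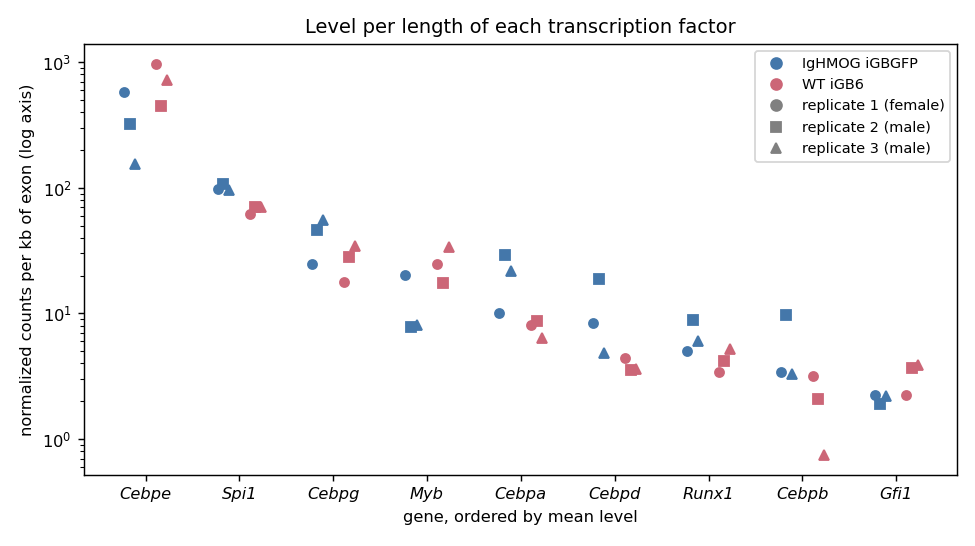
Normalized counts per kb of annotated exon (log axis) for the 9 genes, ordered by mean, with 1 point per library coloured by group and shaped by replicate. Cebpe lies above all others in every library, from 154 to 974, and Cebpb and Gfi1 lie at the bottom with means of 3.75 and 2.69.

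The comparison asks whether the transcription factors that run granulopoiesis differed in splenic CD11b+ cells between WT iGB6 and IgHMOG iGBGFP mice. Cebpe, the late granulocyte factor, was higher in WT iGB6 and was the only 1 of the 9 to pass the test. Myb was higher by a like amount without passing. Cebpa, Cebpd, Cebpg, Runx1 and Spi1 were all lower in WT iGB6, and none of these 5 passed. Cebpb and Gfi1 were below the minimum mean of 10 normalized counts set for the test. Without that filter neither passed by limma, with log2 fold changes of -1.17 (Cebpb, adjusted p = 0.458) and 0.53 (Gfi1, adjusted p = 0.723).

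Differences were tested with limma on log2(normalized count + 1) over all 9923 genes with a mean of 10 or more, in a model of group plus sex, and p-values were adjusted over those genes by Benjamini-Hochberg. A gene was called at an adjusted p under 0.05. Of the 7 transcription factors that were tested, 1 was called (6.12% of all genes tested were, in either direction). That 1 was higher, where 2.75% of all genes were, and 0 were called lower by limma, where 3.37% were. edgeR on the recovered reads called 0 higher (2.56% of all genes) and 0 lower (3.55%). DESeq2 on the same reads called 2 higher, Cebpe and Myb (4.21% of all genes), and 0 lower (4.57%). The same 2 are past an adjusted p of 0.05 as higher in the authors' deposited table (3.89% of its genes), and 0 are as lower (4.29%). All 7 had an unadjusted p under 0.05, as had 2436 of the 9923 genes. The median log2 fold change of the 7 was -0.60, against 0.02 over all genes tested. In 3 of the 7 (Cebpa, Cebpd and Spi1) every WT iGB6 library was below every IgHMOG iGBGFP library, which held for 11.4% of the genes tested, and none of the 7 was higher without overlap, against 12.2%.

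**Figure D2:**
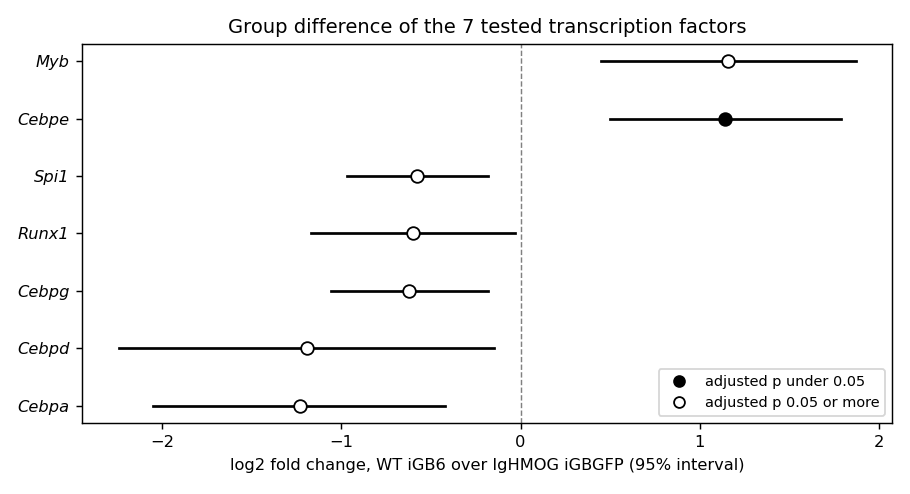
Log2 fold change (WT iGB6 relative to IgHMOG iGBGFP) for the 7 tested genes, with 95% intervals from limma. Cebpe (filled, adjusted p = 0.0467) and Myb lie to the right of 0, and the other 5 lie to the left, between -1.23 and -0.58.

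Cebpe encodes C/EBP epsilon, without which neutrophils do not form secondary granules. It stood at 724, 400 and 191 normalized counts in IgHMOG iGBGFP replicates 1, 2 and 3, and at 1208, 560 and 886 in WT iGB6 replicates 1, 2 and 3. The groups overlapped, because the female IgHMOG iGBGFP library was above WT iGB6 replicate 2. The means were 438 ± 269 and 885 ± 324 (SD, n = 3 per group), a ratio of 2.02. The log2 fold change was 1.14 (SE 0.29, 95% interval 0.50 to 1.79, limma adjusted p = 0.0467). Within each sex the direction was the same, by 0.74 on the log2 scale between the females and by 1.35 between the means of the males.

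The call of Cebpe lay close to the threshold. In the authors' deposited table its adjusted p was 0.00571, and with edgeR on the recovered reads it was 0.0542. It did not pass without the sex term (adjusted p = 0.208) or after leaving out IgHMOG iGBGFP replicate 1 (0.0821), 2 (0.144) or 3 (0.146) or WT iGB6 replicate 1 (0.0834) or 3 (0.0729), and it passed without WT iGB6 replicate 2 (0.00359). Its log2 fold change stayed between 0.78 and 1.39 in all of these.

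Myb encodes the progenitor factor c-Myb, which is switched off as granulocytes mature. Its normalized counts were 182, 69.9 and 72.0 in IgHMOG iGBGFP replicates 1, 2 and 3 and 222, 156 and 300 in the WT iGB6 libraries. The female IgHMOG iGBGFP library again lay inside the range of WT iGB6, while the male ones were lower than all of WT iGB6. With means of 108 ± 64.2 and 226 ± 72.5 (SD, n = 3 per group), the log2 fold change was 1.16 (SE 0.32, 95% interval 0.45 to 1.87) and did not pass (limma adjusted p = 0.0594). The authors' deposited table gives an adjusted p of 0.0139 for Myb, and it also passed with DESeq2 (0.0104) and without WT iGB6 replicate 2 (limma adjusted p = 0.00837). Exons of Myb share 559 of 8933 bases with the predicted gene Gm26577, which was itself at 8.00 to 12.1 and 18.2 to 30.4 normalized counts in the groups.

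**Figure D3:**
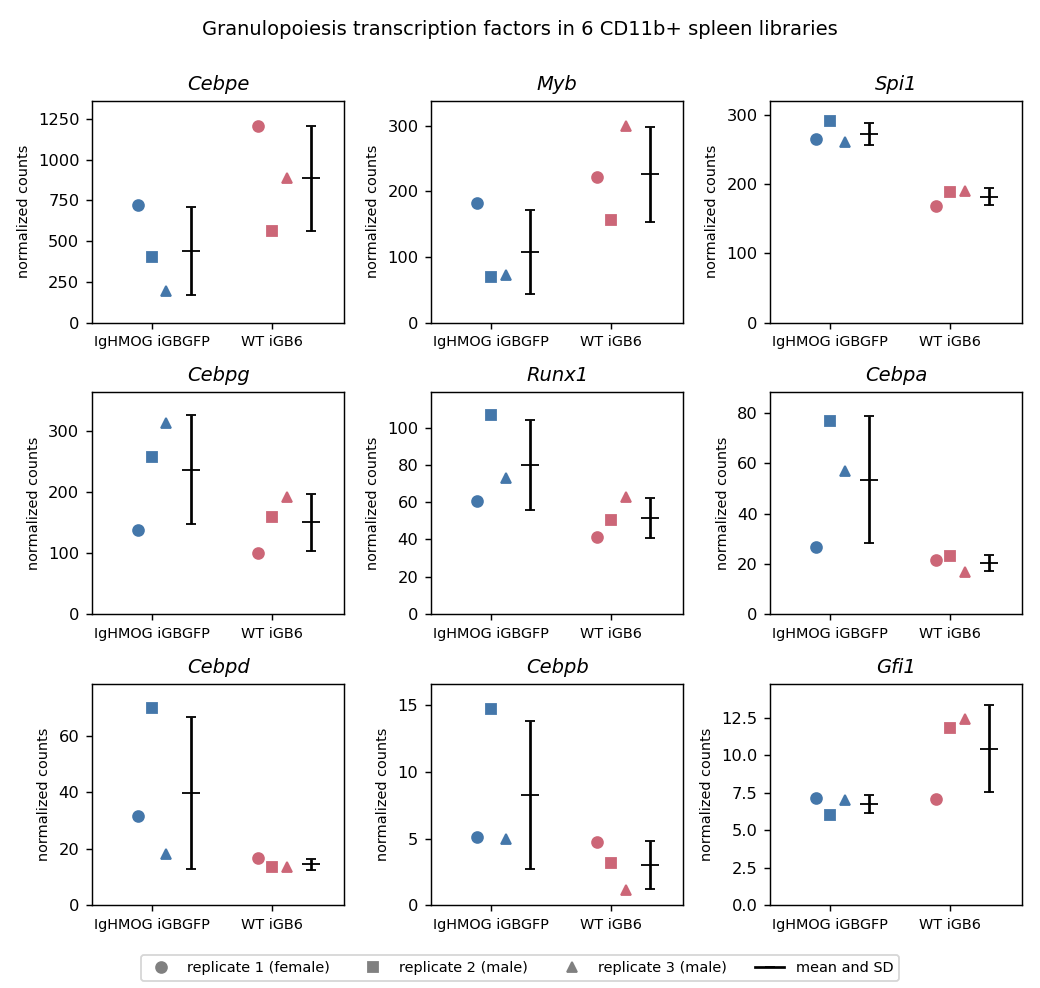
Normalized counts of the 9 genes in each library (linear axes from 0), by group, with the mean and SD beside the points and the shape showing the replicate. Cebpe and Myb are higher in WT iGB6 with overlap, Spi1 separates the groups with little spread (168 to 189 against 261 to 290), and Cebpb and Gfi1 stay under 15 normalized counts.

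Cebpa encodes C/EBP alpha, which commits progenitors to the granulocyte-monocyte lineage. It was at 26.6, 76.8 and 57.0 normalized counts in IgHMOG iGBGFP replicates 1, 2 and 3 and at 21.3, 22.9 and 16.9 in WT iGB6. Every WT iGB6 library was below every IgHMOG iGBGFP library, and the spread lay almost wholly in IgHMOG iGBGFP (means 53.4 ± 25.3 and 20.4 ± 3.13, SD, n = 3 per group). The separation was narrow between IgHMOG iGBGFP replicate 1 (26.6, from 26 reads) and WT iGB6 replicate 2 (22.9, from 29 reads). Cebpa rested on 15 to 89 reads per library. The log2 fold change was -1.23 (SE 0.36, 95% interval -2.05 to -0.42), which did not pass (limma adjusted p = 0.0715; 0.0532 in the authors' deposited table). The order of the libraries was close to the reverse of that of Myb: the male IgHMOG iGBGFP libraries were highest in Cebpa and lowest in Myb, and WT iGB6 replicate 3 was lowest in Cebpa and highest in Myb.

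Cebpg encodes C/EBP gamma, a partner of the other C/EBP proteins that lacks an activation domain of its own. Its normalized counts were 138, 257 and 313 in IgHMOG iGBGFP replicates 1, 2 and 3 and 99.6, 159 and 192 in WT iGB6, so the groups overlapped. In both groups the female library was the lowest. The log2 fold change was -0.62 (SE 0.20, 95% interval -1.06 to -0.18, limma adjusted p = 0.0900), with 0.114 in the authors' deposited table.

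Spi1 encodes PU.1, an ETS factor that all myeloid lineages need and that at high dose favours macrophages. It was the steadiest of the 9. It stood at 264, 290 and 261 normalized counts in IgHMOG iGBGFP replicates 1, 2 and 3 and at 168, 188 and 189 in WT iGB6, with no overlap. The means were 272 ± 15.9 and 182 ± 11.6 (SD, n = 3 per group), a ratio of 0.669, and the log2 fold change was -0.58 (SE 0.18, 95% interval -0.97 to -0.18, limma adjusted p = 0.0801). With library weights in limma Spi1 passed (adjusted p = 0.0228).

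Runx1, the core binding factor subunit that blood stem cells need to arise, was at 60.4, 107 and 73.0 normalized counts in IgHMOG iGBGFP and 41.5, 50.5 and 63.0 in WT iGB6. The highest WT iGB6 library lay above the lowest IgHMOG iGBGFP library, and the log2 fold change of -0.60 (SE 0.26, 95% interval -1.17 to -0.03) did not pass (limma adjusted p = 0.182). Gfi1, the repressor that opposes the monocyte programme, was close to the limit of detection at 7.16, 6.04 and 7.0 normalized counts in IgHMOG iGBGFP and 7.11, 11.8 and 12.4 in WT iGB6. These rest on 6 to 15 reads, the females were alike, and no test was made at the minimum mean of 10.

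The emergency factors were scarce, but not they alone. Per kb, the steady-state factor Gfi1 (2.69) was below Cebpb (3.75), and Runx1 (5.48) was below Cebpd (7.26). Cebpd, which encodes C/EBP delta, an acute-phase factor, was at 31.7, 69.9 and 18.0 normalized counts in IgHMOG iGBGFP replicates 1, 2 and 3 and at 16.6, 13.4 and 13.5 in WT iGB6. The groups did not overlap, but IgHMOG iGBGFP replicate 3 lay only just above WT iGB6. The log2 fold change of -1.19 (SE 0.47, 95% interval -2.24 to -0.15) did not pass (limma adjusted p = 0.153) and moved to -0.61 without IgHMOG iGBGFP replicate 2. Cebpb had 5.11, 14.7 and 5.0 normalized counts in IgHMOG iGBGFP and 4.74, 3.16 and 1.12 in WT iGB6, from 5, 17 and 5 reads against 4, 4 and 1. Apart from IgHMOG iGBGFP replicate 2, the libraries differed by a few reads.

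Steady-state and emergency factors were also set against each other within each library, as a difference of log2(normalized count + 1) with no correction for length. Cebpb was below Cebpa in every library, with differences (Cebpb minus Cebpa) of -2.17, -2.31 and -3.27 log2 units in IgHMOG iGBGFP and of -1.96, -2.52 and -3.07 in WT iGB6. The mean differences, -2.59 ± 0.60 and -2.52 ± 0.56 (SD, n = 3 per group), lay within each other's spread. Cebpe exceeded Cebpb by 6.89, 4.68 and 5.0 log2 units in IgHMOG iGBGFP and by 7.72, 7.08 and 8.71 in WT iGB6, without overlap. With 5 added to each count in place of 1 the groups did overlap, at 6.17 in IgHMOG iGBGFP replicate 1 and 6.11 in WT iGB6 replicate 2. Both comparisons rest on the few reads of Cebpb. Of the 6 steady-state factors, 5 were tested, with 1 higher (Cebpe), none lower and a median log2 fold change of -0.58. Of the 2 emergency factors only Cebpd was tested at the minimum mean of 10.

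The group differences of the 7 tested factors had the same direction in both sexes. The female difference was smaller than the mean male difference for Cebpe, Myb, Cebpa, Cebpd, Cebpg and Runx1, and the widest gaps were those of Cebpa (-0.30 between females, -1.70 between males) and Myb (0.28 and 1.59). A limma model with the interaction of sex and group called 0 of 9923 genes (148 at an unadjusted p under 0.05), and the unadjusted p was 0.0775 for Cebpa and 0.0490 for Myb. With 1 female per group, sex cannot be told apart from whatever else the replicates numbered 1 shared.

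Other transcription factors of the same decisions were mostly lower in WT iGB6 or did not pass. Of 12 other C/EBP-related zipper genes, 8 were tested and 1 fell: Ddit3, which encodes CHOP, a stress-induced protein that pairs with C/EBP factors and blocks their binding, averaged 150 ± 42.1 normalized counts in WT iGB6 against 359 ± 66.4 in IgHMOG iGBGFP (log2 fold change -1.27, SE 0.23, limma adjusted p = 0.0186). Atf4, the most abundant of them, was at -0.13 (SE 0.20, adjusted p = 0.736 by limma). Of 18 factors of the monocyte and dendritic cell branches, 17 were tested, 7 fell and none rose, with a median log2 fold change of -1.07. Irf8, which drives monocytes and dendritic cells at the expense of neutrophils, fell from 417 ± 152 to 177 ± 13.7 normalized counts (-1.17, SE 0.24), and Irf4 (-2.55, SE 0.49), Egr2 (-1.80, SE 0.36), Klf4 (-1.73, SE 0.39), Klf2, Nr4a1 and Zeb2 were the others. Id2, the most abundant of that list, was at 0.48 (SE 0.17, limma adjusted p = 0.120). The 7 calls among monocyte and dendritic cell factors became 3 without either replicate 1, 0 without IgHMOG iGBGFP replicate 2 or 3 and 0 without the sex term, while the median ran from -1.23 to -0.82 over single libraries left out. The call of the C/EBP-related list became 0 without any 1 of the IgHMOG iGBGFP libraries, without WT iGB6 replicate 1 or without the sex term, and 2 without WT iGB6 replicate 2.

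Of 29 other neutrophil lineage factors, 24 were tested and 3 fell, while none rose. Rara, the retinoic acid receptor that promotes granulocyte maturation, averaged 395 ± 164 normalized counts in WT iGB6 against 894 ± 201 in IgHMOG iGBGFP (log2 fold change -1.24, SE 0.29, limma adjusted p = 0.0378), and the AP-1 genes Junb (-1.44, SE 0.21) and Jun (-1.47, SE 0.31) were the others. Stat3, which carries the signals of the IL-6 and G-CSF receptors, was at 2113 ± 276 and 2078 ± 386 normalized counts (log2 fold change -0.03, SE 0.17, limma adjusted p = 0.935). Of 21 factors of stem and early progenitor cells, 13 were tested and 1 fell, Gata2 (-2.87, SE 0.42), which also marks basophils. Fli1, the most abundant of them, was at 0.36 (SE 0.16, limma adjusted p = 0.192). None of the 8 tested partners of Myb and Runx1 passed (median -0.08), with Ep300, an acetyltransferase that Myb recruits, at -0.13 (SE 0.19). Several of these genes, among them Irf8, Gata2, Junb and Jun, also stand in lists of other cell types or of isolation stress or are known to be expressed there. Of the 3 calls among neutrophil lineage factors, 1 was left without either replicate 1 and 0 without IgHMOG iGBGFP replicate 2 or 3 or the sex term. In the stem and progenitor list 0 genes were called lower without IgHMOG iGBGFP replicate 2 or 3 or the sex term, or at a minimum mean of 50.

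Upstream of the 9 factors, 17 receptors, ligands and signal genes were listed and 14 tested, of which 1 rose and 3 fell. Csf3r, the G-CSF receptor and a C/EBP alpha target, was at 9890, 14374 and 14742 normalized counts in IgHMOG iGBGFP and at 5662, 10103 and 3574 in WT iGB6, with overlap, and did not pass (log2 fold change -1.12, SE 0.33, limma adjusted p = 0.0720). Kit, the stem cell factor receptor of progenitors and mast cells, rose from 43.8 ± 11.9 to 88.8 ± 4.25 normalized counts (1.04, SE 0.27, limma adjusted p = 0.0478). Flt3 (-1.98, SE 0.40), Il6ra, which encodes the IL-6 receptor alpha chain (-1.09, SE 0.23), and Socs3, the feedback inhibitor of IL-6 and G-CSF signalling (-1.44, SE 0.32), fell. In this list 0 genes were called higher in each of the 6 fits that left out 1 library, with edgeR, with TMM scaling, at a minimum mean of 50 or without the sex term, so the call of Kit did not hold there. The 3 calls lower became 0 without any 1 of the IgHMOG iGBGFP libraries, without WT iGB6 replicate 1 or without the sex term, and 6 without WT iGB6 replicate 2.

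Genes made at successive steps of the neutrophil programme were counted in the same libraries. Of 12 primary granule genes, 7 rose and none fell (median log2 fold change 1.77). Mpo, a target of C/EBP alpha, PU.1 and Myb, was at 634, 521 and 222 normalized counts in IgHMOG iGBGFP and at 8033, 6272 and 1696 in WT iGB6 (3.39, SE 0.44, limma adjusted p = 0.00622), while Cebpa was lower in the same libraries. Fcnb (1.88, SE 0.19) and Ms4a3 (2.21, SE 0.26) also rose. Lyz2, the most abundant of the list, was at 0.42 (SE 0.36, limma adjusted p = 0.514). The share of counts held by the primary granule list overlapped, at 3.14 to 4.05% in IgHMOG iGBGFP and 3.84 to 4.61% in WT iGB6. Of 18 secondary and tertiary granule genes, the group that C/EBP epsilon serves, 2 rose (Orm1 and Itgb2l), 1 fell (Arg2) and 15 did not pass (median 0.83). Ngp, the most abundant, was at 0.90 (SE 0.47, adjusted p = 0.266 by limma), with the female IgHMOG iGBGFP library inside the range of WT iGB6, as for Cebpe. The 7 calls among primary granule genes became 5 without IgHMOG iGBGFP replicate 1, 4 without WT iGB6 replicate 1, 2 without IgHMOG iGBGFP replicate 3, and 0 without its replicate 2 or the sex term, with medians of 1.58 to 1.93 over single libraries left out. The secondary granule list had 0 calls in either direction without any 1 of the IgHMOG iGBGFP libraries, without WT iGB6 replicate 1 or without the sex term, and 9 calls higher with DESeq2. Its median moved to 0.41 without WT iGB6 replicate 3 and to 0.49 with library weights, and was 1.10 without either replicate 1.

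WT iGB6 replicate 2 had the lowest secondary granule share and the lowest Cebpe of its group, and IgHMOG iGBGFP replicate 1 the highest of both in its own. The secondary granule list held 23.7, 13.8 and 11.7% of normalized counts in IgHMOG iGBGFP replicates 1, 2 and 3, and 27.8, 20.3 and 28.4% in WT iGB6. Genes of cell division rose in 20 of 28 cases with none lower (median 1.10), and held 0.0899 to 0.113% of IgHMOG iGBGFP and 0.122 to 0.250% of WT iGB6 libraries. Of 19 mature neutrophil genes, 18 were tested, 3 fell (Clec4d, Cxcr2 and Stfa2l1) and none rose (median -0.45). Cell division genes had 4 calls without either replicate 1, 1 without IgHMOG iGBGFP replicate 3 and 0 without its replicate 2 or the sex term, with a median of 0.90 to 1.26 over single libraries left out. The mature neutrophil list had 0 calls without any 1 of the IgHMOG iGBGFP libraries, without WT iGB6 replicate 1 or without the sex term, and 8 and 6 without WT iGB6 replicates 2 and 3, and its median moved to -0.75 without IgHMOG iGBGFP replicate 3. In sorted bulk cells, fewer cells of a type and less RNA per cell cannot be told apart.

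Markers of other cells did not all move alike. The list medians were clearly negative for monocytes, for dendritic cells, and for basophils and mast cells. They were -0.26 for macrophages and 0.04 for natural killer cells. Of 12 monocyte markers, all tested, 6 fell and none rose (median -0.84), and the list held 0.306 to 0.814% of IgHMOG iGBGFP and 0.214 to 0.446% of WT iGB6 libraries. Of 13 dendritic cell markers, 10 were tested and 8 fell (median -1.70), with shares of 0.174 to 0.869% and 0.0757 to 0.224%. Of 11 basophil and mast cell markers, 10 were tested, 6 fell and 1 rose, with shares of 0.214 to 0.394% and 0.180 to 0.204%. The 2 most abundant markers of each list were Ly6c2 (0.18, SE 0.20) and F13a1 (-0.72, SE 0.32) for monocytes, Cd74 (-1.71, SE 0.31) and H2-Ab1 (-1.55, SE 0.30) for dendritic cells, and Hdc (-0.13, SE 0.23) and Prss34 (-1.97, SE 0.72) for basophils and mast cells, of which Cd74 and H2-Ab1 passed. No marker of these 3 lists was at 0 in all libraries. Of 12 macrophage markers 1 rose, Cd5l (median -0.26, from -0.71 without WT iGB6 replicate 2 to 0.39 without its replicate 3). Of the 6 tested markers of stem and progenitor cells Kit rose and Cd48 fell (median 0.84, and 0.20 without a filter on low counts). Among lymphoid markers Nkg7 rose (1 of 9 tested natural killer cell genes), Lat fell (1 of 4 T cell genes) and 0 of 6 B and plasma cell genes passed. Ppbp rose and Itga2b fell among 3 tested platelet genes, and 0 of 4 eosinophil and 0 of 12 erythroid genes passed. The calls of the macrophage, stem cell, natural killer, T cell and platelet lists were all lost without any 1 of the IgHMOG iGBGFP libraries, without WT iGB6 replicate 1 or without the sex term. Isolation stress genes, which tissue handling can induce, fell in 10 of 19 tested cases with none higher (median -1.44), and their shares of 0.718 to 1.35% and 0.381 to 0.736% overlapped. Calls lower among monocyte, dendritic cell and isolation stress genes became 2, 5 and 3 without either replicate 1, 0, 1 and 0 without IgHMOG iGBGFP replicate 2, and 0, 1 and 1 without its replicate 3. None of these 3 lists had a call without the sex term, and the medians ran from -1.01 to -0.54, from -1.88 to -1.35 and from -1.54 to -1.10 over single libraries left out. Basophil and mast cell genes had 5 calls lower without either replicate 1, 0 without IgHMOG iGBGFP replicate 2, and 2 without the sex term. The part of these cells and of isolation stress in the values of Cebpa, Cebpb, Cebpd, Cebpg, Spi1 and Runx1 was not tested.

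**Figure D4:**
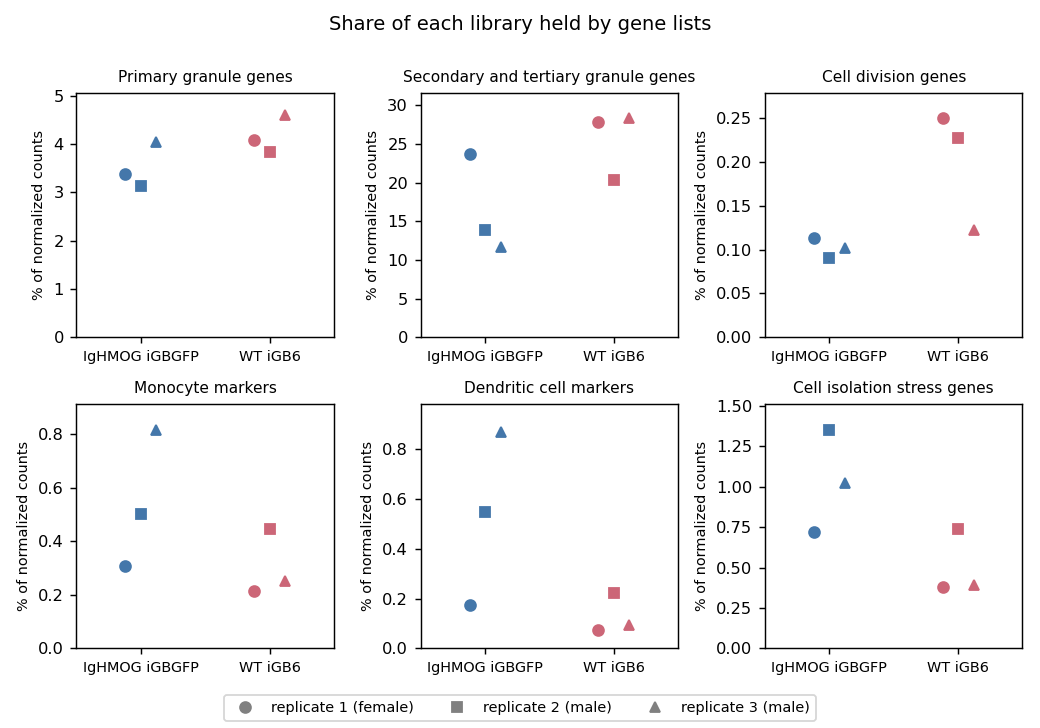
Share of all normalized counts (%, linear axes from 0) held by 6 gene lists in each library, by group and replicate. Cell division genes are higher in all WT iGB6 libraries, and in the secondary granule panel the female IgHMOG iGBGFP library (23.7%) lies above WT iGB6 replicate 2 (20.3%).

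The genes whose pattern over the 6 libraries was most like that of 3 of the factors were taken from 5086 coding genes with a mean of at least 100 normalized counts. For Cebpe they were Tecr, Lamtor1 and Tuba8, with Pearson correlations of 0.998, 0.997 and 0.995 on log2 values. For Cebpa they were Rpl11 (0.986), Gltp (0.984) and Cst3 (0.983), and for Cebpb Ubald1 (0.992), Lsm10 (0.985) and Chac1 (0.985). All of these values are taken over the same 6 libraries in 2 groups and are a description only.

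Every alternative that was run kept the direction of all 7 tested factors, in 117 of 117 values, but not the calls. Many of these values are not separate evidence. In this balanced design the fits without the sex term, with the replicate block or with another filter return the same fold change as the main fit. Males alone and the fits without either replicate 1 also share their fold change. Over the alternatives, Cebpe was between 0.78 and 1.39 and passed in 8 of 17, and Myb was between 0.76 and 1.59 and passed in 5 of 17. Cebpa, Cebpg and Spi1 each passed in 1 (Cebpa of 16, the others of 17), and Cebpd and Runx1 in none.

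**Figure D5:**
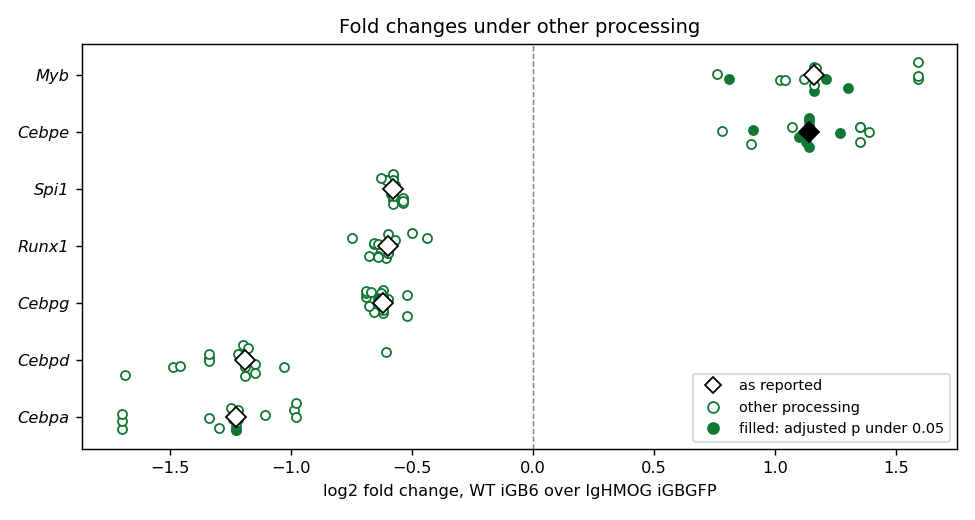
Log2 fold change of the 7 tested genes as reported (diamonds) and under each alternative in processing (circles, spread vertically for legibility), filled where the adjusted p was under 0.05. Cebpe and Myb stay between 0.76 and 1.59 and the other 5 stay between -1.70 and -0.44, with few filled points.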

How the data were processed

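The 6 libraries are bulk RNA-seq of sorted CD11b+ spleen cells, 3 mice per group. The submitters' processing notes list, without roles, the counter featureCounts 2.0.3, the aligner STAR 2.7.10b, DESeq2 2.11.40.7, cutadapt 4.4, and the builds GRCm38 and mm10. RNA was amplified without molecular identifiers, per the labels' protocols, so counting error is a lower limit. The deposited signal values are normalized counts, which the authors made from read counts with a size factor for each library: dividing by the smallest value gave whole reads for 100% of values within 0.001. The authors' deposited table gives, without a header, an adjusted p-value, a p-value, a Wald score and a log2 fold change, and its column order was read from the values. Symbols, coordinates and exons came from GENCODE M21 (42548 of 43432 genes matched).

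Tests used limma 3.58.1 in R 4.3.3 on log2(normalized count + 1), in a two-sided model of group plus sex. The fold change is on that scale and understates changes of low genes. Alternatives on the recovered reads were DESeq2 1.42.0 (871 genes called, 581 shared with the 607 of limma) and edgeR 4.0.16 with its quasi-likelihood test and TMM (606 called, 564 shared). The steps were tested on simulated data, in which limma recovered 46 of 99 changes of 1 log2 unit and 90 of 93 changes of 2 log2 units, with 2 false calls. Lists were described by counts and medians. The members and lists were chosen with earlier results of these data known. The rule for naming genes took the 9 factors and, from each list, up to 3 called genes with the smallest p and the most abundant gene. For lists of other cell types it took the 2 most abundant. Some genes that the rule took, among them S100a8 and Rrm2, were not printed. Itgam, Ly6g, Klf2, Klf4, Nr4a1, Zeb2, Kit, Cd5l, Cd48, Nkg7, Lat, Ppbp and Itga2b were named after their values were seen.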

Additional observations from a re-analysis of the deposited data

How the results depend on the processing

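Counts over all genes moved more than the fold changes. Against 273 genes higher and 334 lower, the model without the sex term called 6 and 4, males alone 62 and 72, the replicate block 435 and 566, no filter on low counts 459 and 620, library weights 731 and 712, and DESeq2 418 higher. Leaving out single libraries gave 3 to 410 higher and 1 to 673 lower: 66 and 62 without IgHMOG iGBGFP replicate 1, 3 and 1 without its replicate 2, 12 and 14 without its replicate 3, 63 and 72 without WT iGB6 replicate 1, and 410 and 673 without WT iGB6 replicate 2. The cause of these changes was not tested. Leaving out a replicate 1 leaves a lone female that the sex term takes up. Every fit that left out a library has fewer samples, also the fit without WT iGB6 replicate 2, in which calls rose. Of the 9 factors, 0 were called higher without the sex term, with a minimum mean of 50, with edgeR or with males alone, and 2 (Cebpe and Myb) with the replicate block, no filter, DESeq2 or library weights, with 0 to 2 over single libraries left out. Called lower were 1 without the filter (Cebpa) and 2 with library weights (Cebpg and Spi1). Cebpe did not pass without the sex term (1.14), with a minimum mean of 50 (1.14, adjusted p = 0.0531), with edgeR (1.07) or with males alone (1.35, adjusted p = 0.0833), and ran from 0.78 to 1.39 over single libraries left out. Myb passed with the replicate block (1.16, adjusted p = 0.0352), no filter (1.16), DESeq2 (1.21) and library weights (0.81), and ran from 0.76 to 1.59. Cebpa passed without the filter (-1.23, adjusted p = 0.0404), and with library weights Cebpg (-0.64, adjusted p = 0.0273) and Spi1 (-0.59) passed. Calls within the gene lists also changed, as given beside each list. The replicate block gave 9 monocyte and dendritic cell factors and 8 mature neutrophil genes lower against 7 and 3, and library weights gave 6 other neutrophil lineage factors lower against 3. In the sample titles, mice of the same replicate number carry close mouse numbers. The replicate numbers were still not shown to pair the libraries: deviations of same-numbered libraries from their group means correlated at 0.441, 0.336 and 0.02. For libraries of unlike number these correlations ran from -0.502 to 0.273, so the first 2 same-numbered values lie above that range and the third inside it. The difference of Cebpb minus Cebpa between the groups ran from -0.28 to 0.43 around 0.07. The fit without a filter takes in every gene with a read in any library, also those below the minimum mean of 10. The limma variance trend then uses these genes too. At 1 to 17 reads, the values of Cebpb are imprecise, and the reason for its low count was not tested.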
